A study of Mus musculus with 6 samples.

Results

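The clustered replication histone genes were examined in regulatory T (Treg) cells of the neonatal mouse liver and spleen. They were defined by symbol, as the rows named Hist1h, Hist2h, Hist3h or Hist4h, which gave 68 of the 23366 genes in the deposited table. The family was picked from its liver and spleen values in these same libraries, so those values, and the edgeR calls printed with them, are given below as a description and support nothing. Both groups were CD4+GFP+ cells sorted by flow cytometry from 12-day-old Foxp3-GFP knock-in mice, in which a green fluorescent protein reports expression of Foxp3, the lineage factor of Treg cells. There were 3 liver and 3 spleen libraries of total RNA, numbered here in accession order. No treatment was given in the labels, and liver and spleen cells carried the same allele. The labels do not say whether libraries came from separate or pooled animals, so the spread between libraries may be technical in part.

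Replication histones supply the protein that packages newly copied DNA. H2A, H2B, H3 and H4 form the core of the nucleosome, and H1 is the linker histone that binds the DNA between nucleosomes. Their genes sit in clusters, are transcribed mainly in S phase, and give messenger RNAs that usually end in a conserved stem loop in place of a poly(A) tail. Stem-loop binding protein and the U7 small nuclear ribonucleoprotein direct the cut just downstream of that stem loop, and some of the genes also yield polyadenylated forms from sites farther on. Whether poly(A) selection was used for these libraries is not given in the sources used here; the labels name total RNA and standard Illumina preparation.

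The stem loops are shown because they are common in replication histone transcripts and rare in other messenger RNAs. The search was for a 6-base stem opening with GG, then any pair of pyrimidines, then CT, a loop of any 4 bases, and the reverse complement of the stem, in the sense direction of the longest coding transcript in GENCODE vM21. It was found in 45 of the 68 genes (66.2%) and in 91 of 21901 coding genes (0.416%), and those 91 include the 45. The letters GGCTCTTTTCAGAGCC occurred in 25 genes, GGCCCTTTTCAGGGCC in 7 and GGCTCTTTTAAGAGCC in 6. Capitals mark the stem loop and lower case the 5 bases on each side, written 5′ to 3′ as DNA.
Hist1h1c: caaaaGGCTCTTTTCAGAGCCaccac
Hist3h2a: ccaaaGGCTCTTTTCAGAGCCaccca
Hist3h2ba: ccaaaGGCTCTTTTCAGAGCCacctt
Hist1h2bj: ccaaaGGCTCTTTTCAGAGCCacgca
Hist1h2ag: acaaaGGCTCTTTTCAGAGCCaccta
Hist1h2ae: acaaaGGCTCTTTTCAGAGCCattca
Hist1h3c: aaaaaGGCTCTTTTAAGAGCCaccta
Hist1h4i: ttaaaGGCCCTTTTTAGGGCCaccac
Hist1h4b: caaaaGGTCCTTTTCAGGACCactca
The stem loop of Hist1h1c was shared letter for letter with those of both Hist3 genes, Hist1h2bj, Hist1h2ag and Hist1h2ae. Hist1h3c differed from it in the loop and both H4 genes shown differed in the stem, Hist1h4i also in the loop. None was found in the annotated transcripts of Hist2h2be, Hist1h2bc or Hist1h2ai. A missing match says only that these letters are not in that annotated transcript.

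The promoters of 4 genes are shown because the family's levels differed most between tissues for some members and little for others. Each runs from 250 bases before to 50 bases after the start in RefSeq, build GRCm38.p6, and 61 of the 68 genes had such an entry. The deposited counts were made on build mm9, so these positions serve only to place the sequence. Capitals mark the TATAAA box, the CCAAT box or the octamer ATTTGCAT, in either direction.
Hist1h2bj promoter, chr13:22042948-22043247, plus strand: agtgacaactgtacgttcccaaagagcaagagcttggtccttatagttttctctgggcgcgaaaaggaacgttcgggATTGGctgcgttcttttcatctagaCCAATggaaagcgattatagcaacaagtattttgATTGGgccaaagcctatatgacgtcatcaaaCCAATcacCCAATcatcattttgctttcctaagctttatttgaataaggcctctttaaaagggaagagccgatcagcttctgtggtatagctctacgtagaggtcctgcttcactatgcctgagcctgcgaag
Hist1h2ae promoter, chr13:23571171-23571470, minus strand: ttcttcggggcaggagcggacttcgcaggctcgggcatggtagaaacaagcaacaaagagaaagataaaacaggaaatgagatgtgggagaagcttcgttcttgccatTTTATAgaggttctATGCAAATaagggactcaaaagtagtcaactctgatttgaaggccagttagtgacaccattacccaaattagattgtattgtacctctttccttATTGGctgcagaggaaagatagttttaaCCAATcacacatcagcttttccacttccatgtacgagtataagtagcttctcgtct
Hist1h4i promoter, chr13:22041313-22041612, minus strand: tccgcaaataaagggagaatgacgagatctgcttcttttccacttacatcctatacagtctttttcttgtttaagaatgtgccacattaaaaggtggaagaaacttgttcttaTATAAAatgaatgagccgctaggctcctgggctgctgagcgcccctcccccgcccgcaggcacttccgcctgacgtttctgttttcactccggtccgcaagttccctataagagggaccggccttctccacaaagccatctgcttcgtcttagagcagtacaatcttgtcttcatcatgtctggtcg
Hist3h2a promoter, chr11:58954435-58954734, plus strand: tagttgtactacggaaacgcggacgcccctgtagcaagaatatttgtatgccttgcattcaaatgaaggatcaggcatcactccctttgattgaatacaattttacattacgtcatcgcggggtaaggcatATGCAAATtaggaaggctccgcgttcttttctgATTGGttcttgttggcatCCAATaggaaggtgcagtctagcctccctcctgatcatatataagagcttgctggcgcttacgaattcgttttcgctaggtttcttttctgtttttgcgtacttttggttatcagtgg
Hist1h2bj held 5 copies of CCAAT. Hist1h2ae held 1 octamer, 1 TATAAA and 2 copies of CCAAT, Hist3h2a 1 octamer and 2 copies of CCAAT, and Hist1h4i only a TATAAA. Over the 61 promoters, searched on both strands, TATAAA was in 35 (57.4%), CCAAT in 52 (85.2%) and the octamer in 13 (21.3%). Over all 27025 RefSeq promoters of that length the shares were 14.2%, 37.9% and 1.75%. CCAAT was in every promoter of the H1, H2A, H2B and H3 genes with an entry and in 3 of 12 H4 promoters. The octamer was found in 7 of 17 H2A and 6 of 16 H2B promoters, and in none of the H1, H3 or H4 promoters. A match is a description of the letters, not a binding site.

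Paired H2A and H2B genes read in opposite directions from 1 stretch of DNA. Overlapping promoters on opposite strands were found in 9 pairs, each an H2A gene with an H2B gene. Matches in a shared stretch, such as the octamer of Hist1h2ae and Hist1h2bg, were counted for both genes in the promoter shares above. Hist1h2bj and Hist1h2ag shared 252 promoter bases and had 107 and 84 counts over the 6 libraries. Hist1h2ae and Hist1h2bg shared 279 bases and had 110 and 51 counts. Hist1h2ai had 96 counts and its partner Hist1h2bl 3, and Hist1h2ak had 49 and Hist1h2bn 3. Of the transcripts of Hist1h2bl and Hist1h2bn, 17.2% and 13.6% of 50-base windows occurred in no gene elsewhere, which limits the reads that could be assigned to them. The share was 9.88% for the partner Hist1h2ai and 47.7% for Hist1h2ak. A part of this in the difference within pairs was not tested. The other 5 pairs had at most 19 counts for a gene.

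Depth set what could be seen. Reads assigned to genes numbered 8437055 to 10951720 per liver library, 11408960 in spleen 2, 11358446 in spleen 3 and 1199410 in spleen 1, the shallowest. Levels are CPM, a gene's counts relative to the total of its library after TMM, edgeR's scaling for composition. With 3 counts taken as the floor, the lowest level that could be told from 0 was 2.58 CPM for spleen 1 and from 0.256 to 0.361 CPM for the rest. Intervals and floors cover counting error only. Liver was higher for 2 of the 7 Treg and T cell markers tested and lower for 1. Foxp3 was at 1266 ± 58.4 CPM in liver and 1160 ± 57.6 in spleen, and Cd4, the gate's surface marker, at 662 ± 28.5 and 649.6 ± 64.3 (SD, n = 3 each). Ctla4 and Ikzf2 were called higher in liver, with log2 fold changes of 0.89 ± 0.12 and 0.35 ± 0.10, and Il2ra lower, at -0.60 ± 0.09 (edgeR adjusted p = 5e-05, 0.0241 and 0.000171).

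The clustered histone genes together were higher in each liver library than in each spleen library. Their summed level was 100.4, 85.1 and 116.3 CPM in liver 1, 2 and 3 and 46.5, 50.8 and 52.1 CPM in spleen 1, 2 and 3. The means were 100.6 ± 15.6 and 49.8 ± 2.96 CPM (SD, n = 3 each), a ratio of 2.02, or 1.96 without spleen 1. In bulk samples, a larger share of cells in S phase and more histone RNA per cell cannot be told apart. The sum rested on few reads, 4276 counts over the 68 genes and 6 libraries.

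**Figure D1:**
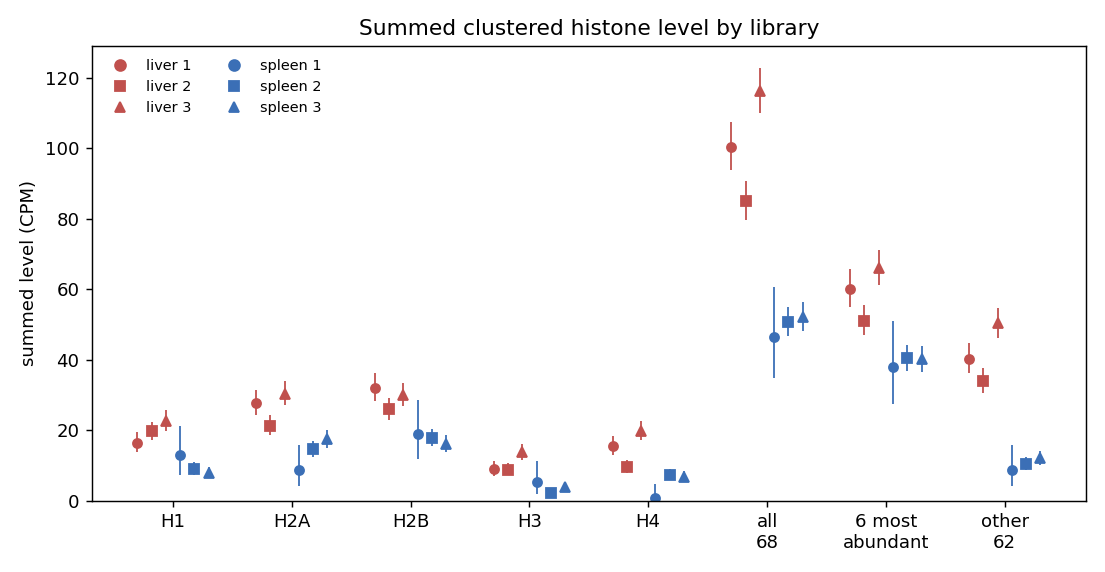
Summed level in CPM (vertical axis, from 0) of the genes of each histone class, of all 68 genes, of the 6 genes with the highest mean CPM and of the other 62, in each library. Points are libraries and bars are exact 95% Poisson intervals for counting error. For all 68 genes the liver libraries sit between 85.1 and 116.3 CPM and the spleen libraries between 46.5 and 52.1.

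The difference was unevenly spread over the genes. The 6 genes with the highest mean CPM (Hist1h1c, Hist3h2a, Hist2h2be, Hist1h4i, Hist3h2ba and Hist1h2bc) held 2754 counts, 64.4% of the family's reads. Their summed level was 59.1 ± 7.53 CPM in liver and 39.4 ± 1.36 in spleen, a ratio of 1.498. The other 62 genes summed to 41.5 ± 8.21 CPM in liver and 10.4 ± 1.72 in spleen, a ratio of 4.01, or 3.69 without spleen 1. By library the 62 genes were at 40.3, 34.0 and 50.3 CPM in liver and 8.61, 10.5 and 12.1 CPM in spleen, so the groups lay far apart. The 6 genes thus took 58.9 ± 1.84% of the family's CPM in liver and 79.3 ± 2.30% in spleen. This division into 6 and 62 was made after the values were seen.

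Most of the family was sparsely counted. Of the 68 genes, 10 had no count in any library, 16 had 1 to 9 counts in all, 33 had 10 to 99 and 9 had 100 or more. Spleen 1 held a count for 10 of the genes, against 34 and 38 in the other spleen libraries and between 47 and 53 in the liver libraries. Among the 58 genes with a count, the mean was higher in liver for 54 and higher in spleen for 4, namely Hist2h3c1, Hist2h4, Hist2h2ab and Hist2h2aa2. All 4 of the latter belong to the Hist2 locus, and none has more than 36 counts. The matching share over all genes was not taken, and 48 of the 58 genes had no count in spleen 1. Nothing is therefore read from the 54. Every liver library was above every spleen library for 20 of the 68 genes, and none had every liver library below. Over all 23366 genes of the table, of which 11716 passed the filter on low counts used below, the shares were 10% and 8.32%. Most of the 20 genes had no count in spleen 1 and liver values under its floor of 2.58 CPM. For those, spleen 1 cannot be placed below the liver libraries.

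Only 11 of the 68 genes passed the filter on low counts, and those were tested with edgeR's quasi-likelihood test among 11716 genes. The filter can let a gene through on its liver reads alone, so these 11 do not stand for the family. A gene was called at a Benjamini-Hochberg adjusted p under 0.05, and 4 of the 11 (36.4%) were called higher in liver: Hist1h1c, Hist1h4i, Hist1h3c and Hist1h2bj. Among all genes tested 9.28% were called higher in liver and 6.9% lower, 16.2% in all. None of the 11 was called lower, and none was lower at an unadjusted p under 0.05. Liver libraries were all above spleen libraries for 5 of the 11 genes, against 17.7% of all genes, and all below for none, against 15.2%. Since the family was picked on this contrast, nothing is read from these shares. The log2 fold change was above 0 for all 11, with a median of 1.08 beside -0.01 for all genes tested. That median moved with the filter. It was 0.32 over 5 genes when 5 CPM were required in 3 libraries, and 2.16 over 58 genes with no filter.

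The linker histone H1 genes were dominated by Hist1h1c. The H1 genes summed to 19.5 ± 3.12 CPM in liver and 9.92 ± 2.65 in spleen, with a ratio of 1.97. Hist1h1c, a somatic H1 gene, was at 12.4, 14.1 and 18.9 CPM in liver and 12.9, 8.23 and 7.78 in spleen. Liver 1 lay just under spleen 1, whose value came from 15 counts, and the liver libraries were above the other spleen libraries. The log2 fold change was 0.81 ± 0.26 (SE). Hist1h1b and Hist1h1e, also somatic linker histones, had 45 and 34 liver counts and none in the spleen libraries. Pooled over the liver libraries, their levels were 12.3 and 9.26 times a floor of 3 counts over the 3 spleen libraries (0.122 CPM). The spread between liver libraries is not in these values: Hist1h1b was at 0.481 CPM in liver 1 and Hist1h1e at 0.550 in liver 2. Hist1h1d had 9, 27 and 10 counts in liver and 0, 7 and 0 in spleen. Hist1h1t, the testis linker histone, had none in any library.

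The H2A genes were led by Hist3h2a, whose libraries overlapped between tissues. Their sum was 26.4 ± 4.67 CPM in liver and 13.5 ± 4.47 in spleen, with a ratio of 1.96, or 1.66 without spleen 1. Hist3h2a was at 14.2, 12.0 and 14.4 CPM in liver and 6.03, 11.6 and 13.7 in spleen, with a log2 fold change of 0.22 ± 0.24 (SE). Apart from spleen 1, read from 7 counts, the libraries of both tissues lay close together and overlapped. Its annotated transcript overlaps that of Trim17 on the same strand, and how reads there were assigned is not given in the sources used here.

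Other H2A genes lay lower and stood farther apart. Hist1h2ae was at 2.04, 2.11 and 4.54 CPM in liver and 0, 0.600 and 1.20 in spleen (log2 fold change 1.81 ± 0.62), and Hist1h2ag at 2.77, 1.93 and 2.32 against 0, 0.0857 and 1.20 (1.95 ± 0.73). For both genes each liver library was above spleen 2 and spleen 3, and neither was called. Spleen 1 had no count for either, but its floor of 2.58 CPM lay above some of these liver values, so it cannot be placed below them. The fold change of Hist1h2ag rested on spleen 3, which held 14 of its 15 spleen counts: it was 4.68 on the log2 scale, and called, without spleen 3, and 1.24 without spleen 2. Hist1h2ai was at 1.80, 2.38 and 2.69 CPM in liver and 2.58, 1.54 and 0.427 in spleen. The groups overlapped only through spleen 1, whose value came from 3 counts. Hist2h2ac had 27 liver counts and none in spleen, and its pooled liver level was 7.36 times the same floor. Hist1h2ak had 19, 6 and 22 counts in liver and 0, 1 and 1 in spleen.

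Among the H2B genes, those with the highest CPM overlapped between tissues and a lower one stood apart. The H2B sum was 29.3 ± 3.18 CPM in liver and 17.6 ± 1.40 in spleen, with a ratio of 1.67. Hist2h2be was at 8.66, 7.43 and 10.7 CPM in liver and 8.61, 6.08 and 8.89 in spleen (log2 fold change 0.23 ± 0.29). Hist3h2ba was at 5.77, 7.98 and 6.95 CPM in liver and 6.03, 6.94 and 3.93 in spleen (0.33 ± 0.33). Both genes overlapped between tissues. Hist1h2bj was at 3.49, 2.66 and 3.43 CPM in liver and 0.861, 0.686 and 0.256 in spleen, a log2 fold change of 2.64 ± 0.62 from 29, 29 and 37 counts against 1, 8 and 3. Its liver values were close together and all above those of spleen. Hist1h2bc was at 8.18, 4.31 and 2.96 CPM in liver and 3.44, 2.74 and 1.80 in spleen (1.08 ± 0.48), where liver 3 lay under spleen 1.

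Among the 5 class sums, each of which was higher in every liver library than in any spleen library, H3 and H4 had the highest ratios. H3 genes summed to 8.90, 8.80 and 13.7 CPM in liver and 5.16, 2.23 and 3.93 in spleen, a ratio of 2.77, or 3.40 without spleen 1. Hist1h3c rose from 0, 0.771 and 1.45 CPM in spleen to 3.13, 3.85 and 4.17 in liver, with a log2 fold change of 1.86 ± 0.54. With a library left out, it ran from 1.63 without spleen 2, where the gene was not called, to 2.48 without spleen 3. Hist2h3c1 went the other way only through spleen 1: it was at 0.120, 0.734 and 1.11 CPM in liver and 4.30, 0.428 and 0.427 in spleen, and each spleen value came from 5 counts.

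H4 genes summed to 15.4, 9.54 and 19.6 CPM in liver and 0.861, 7.28 and 6.84 in spleen, a ratio of 2.97. Without spleen 1, which held a single H4 count, the ratio was 2.104, under the 2.32 of H1 on the same libraries. Hist1h4i was at 10.9, 5.23 and 12.1 CPM in liver and 0.861, 4.799 and 4.02 in spleen, a log2 fold change of 1.23 ± 0.39. Liver 2 lay only just above spleen 2. Hist4h4, the single gene of its locus, was at 0.842, 0.550 and 0.741 CPM in liver and 0, 0.771 and 0.598 in spleen, and the groups overlapped.

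**Figure D2:**
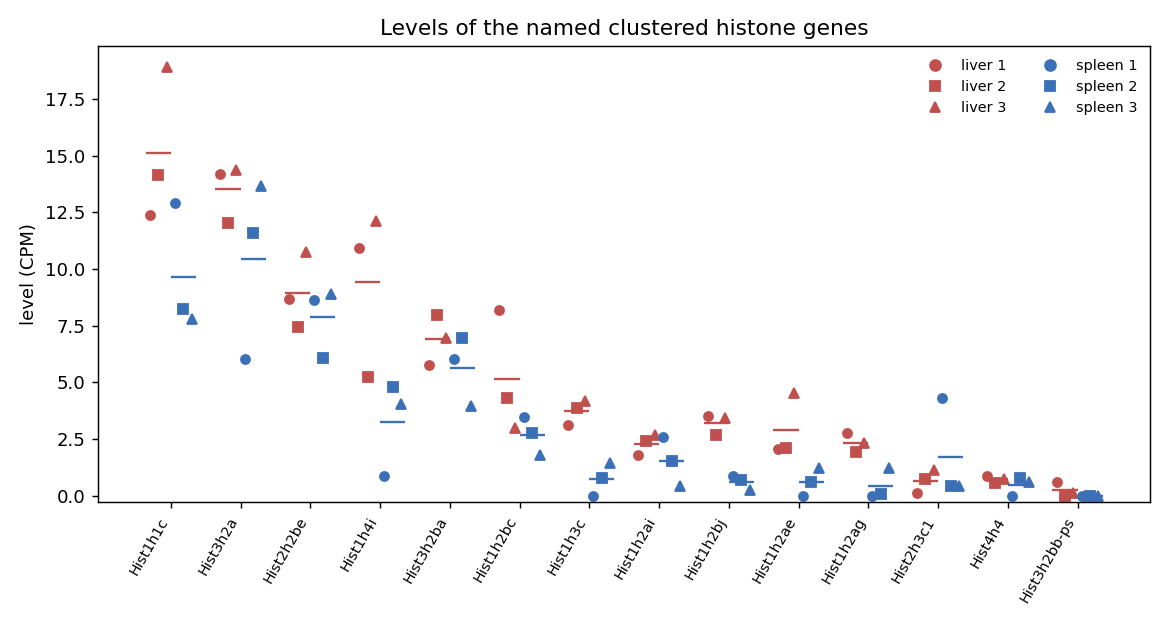
Level in CPM (vertical axis, from about 0) of each gene given by library in the text, with points for libraries and short lines for the mean of each tissue. Hist1h2bj and Hist1h3c show liver points clear of spleen points, at 2.66 CPM and above against 1.45 and below, while those of Hist3h2a and Hist2h2be overlap. Spleen 1 held 1 count for Hist1h2bj and 0 for Hist1h3c, fewer than the floor of 3 counts.

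The loci differed in their ratios. The 54 genes of the Hist1 locus, on chromosome 13, summed to 67.1 ± 13.5 CPM in liver and 22.8 ± 1.87 in spleen, a ratio of 2.94. The 10 genes of Hist2, on chromosome 3, were at 12.9, 10.5 and 13.2 CPM in liver and 13.8, 7.88 and 9.83 in spleen, a ratio of 1.16 with overlapping libraries. That overlap came from spleen 1, with 16 counts, and without it the ratio was 1.38 and liver lay above spleen. The 3 genes of Hist3, on chromosome 11, were at 20.6, 19.99 and 21.4 CPM in liver and 12.1, 18.5 and 17.6 in spleen, a ratio of 1.29, or 1.14 without spleen 1. The third Hist3 gene, the pseudogene Hist3h2bb-ps, had 6 counts in all. All 4 genes called belong to Hist1, which supplied 8 of the 11 genes tested, beside 1 of Hist2, 2 of Hist3 and 0 of Hist4. Whether the ratio differs between loci was not tested, because the genes were chosen on the same contrast.

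Single genes varied much between liver libraries. Of the 29 genes with at least 20 liver counts, 13 had over 50% of their summed liver CPM in 1 library, which was liver 1 for 3 genes, liver 2 for 4 and liver 3 for 6. The median coefficient of variation over the liver libraries was 49.1%. Hist1h2bb had 1, 1 and 21 counts, so liver 3 held 90.2% of its liver CPM, and Hist1h4h had 69.3% in liver 3. Hist2h3b had 70.2% in liver 1. The steadiest were Hist3h2a, Hist1h3c and Hist1h2bj, with coefficients of 9.67%, 14.4% and 14.5%.

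The genes were also grouped by how far the annotated transcript runs past the stem loop, after the values were seen. The 22 genes whose transcript ends within 100 bases of it summed to 16.1, 14.9 and 22.4 CPM in liver and 0.861, 3.34 and 5.04 in spleen, a ratio of 5.77, or 4.24 without spleen 1. None of the 6 genes with the highest CPM is among them. The 23 genes whose transcript runs over 100 bases past the stem loop summed to 59.3 ± 10.4 and 33.9 ± 3.28 CPM, a ratio of 1.75. Leaving out those of the 6 left 19 genes at 14.3 ± 3.85 and 4.94 ± 0.780 CPM, a ratio of 2.89. The 23 genes with no stem loop found had a ratio of 1.83, and of 4.02 without those of the 6. Without spleen 1 as well, the ratio was 5.25 for these 21 genes and 2.72 for the 19, so the genes with no stem loop found then lay above the 4.24 of those with short ends. Hist3h2a and Hist1h1c, for example, run 1643 and 840 bases past the stem loop and Hist1h2bj 23. The annotation used to count is not given in the sources used here, so these lengths are those of GENCODE vM21. A part of RNA selection in these ratios was not tested.

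Levels compared between genes depend on the transcript length chosen. Per kilobase of the GENCODE transcript, the mean CPM over the 6 libraries was 10.2 for Hist3h2ba, 8.71 for Hist1h4i, 7.94 for Hist1h1c and 5.58 for Hist3h2a. Per kilobase of the RefSeq transcript it was 13.6, 15.7, 17.1 and 23.6. The order was thus reversed between annotations. Hist3h2a has 2146 bases in GENCODE and 508 in RefSeq, and Hist1h1c 1560 and 725. Hist1h2bj was at 4.10 and 4.11, and did not depend on the choice.

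Near-identical copies limit what can be counted, since HTSeq set aside reads with more than 1 alignment. Each transcript was read as windows of 50 bases, and windows found in no gene elsewhere were called unique. The median share of unique windows was 8.56% for the 10 genes with no count, 36.9% for those with 1 to 9 counts, 54.2% for those with 10 to 99 and 71.1% for those with 100 or more. Hist1h2bq, Hist1h2br, Hist2h2aa1, Hist1h2ao and Hist1h2ap had no count and at most 6.93% unique windows, so a count of 0 there does not speak of expression. Hist1h1t and Hist1h2aa, testis genes, had no count with 100% and 97.7% unique. Among the called genes the share was 91.5% for Hist1h1c, 71.1% for Hist1h4i, 53.0% for Hist1h3c and 40.6% for Hist1h2bj. In all, 30 of the 68 genes had under 50% unique windows and 24 overlap another annotated gene, so their values are uncertain.

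**Figure D3:**
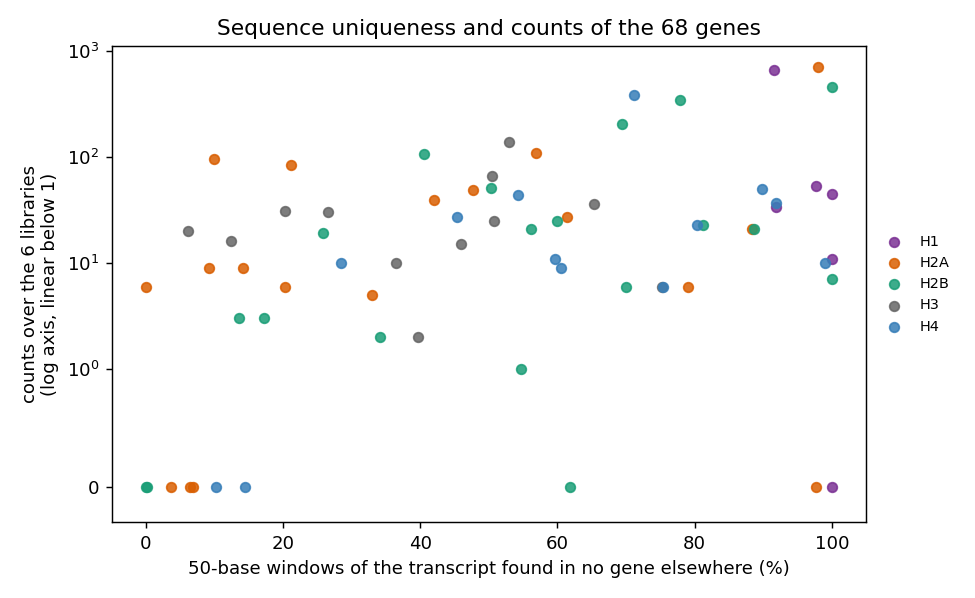
Share of 50-base windows found in no gene elsewhere (horizontal axis, %) against the counts over the 6 libraries (vertical log axis, linear below 1) for each of the 68 genes, coloured by class. The 9 genes with 100 or more counts all lie at 40.6% or above, while the 10 genes at 0 include both ends of the horizontal axis.

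Replacement histones are variants encoded outside the clusters, most of them with polyadenylated messages made through the cell cycle; H2afx is known to give a stem-loop message as well. The list held 10 tested genes, with 4 higher in liver, none lower and 6 short of the threshold (median log2 fold change 0.39). Summed, they were at 3258 ± 146 CPM in liver and 2855 ± 490 in spleen, a ratio of 1.14. H2afx, the variant phosphorylated at DNA breaks, rose from 89.3 ± 8.501 to 194 ± 23.2 CPM (log2 fold change 1.15 ± 0.11, edgeR adjusted p = 9.83e-07). Cenpa, the centromeric H3, rose by 1.18 ± 0.11 (edgeR adjusted p = 1.37e-06), H2afv by 0.77 ± 0.11 (edgeR adjusted p = 0.00011) and the linker H1f0 by 0.59 ± 0.11 (edgeR adjusted p = 0.00127). H3f3b, which encodes the replacement H3.3 protein, was at 807 ± 64.8 and 781.6 ± 232 CPM.

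Genes that make or end the histone message mostly did not pass the test. Of 21 tested genes of histone transcription and 3′ end processing, 2 were higher in liver, none lower, and 19 did not pass (median log2 fold change 0.05). Zfp473, a zinc finger component of 3′ end processing, was at 1.92 ± 0.912 CPM in liver and 0.171 ± 0.171 in spleen (2.94 ± 0.77, edgeR adjusted p = 0.0127). Its reads were few, with 8, 22 and 30 counts in liver 1, 2 and 3 and 0, 4 and 2 in spleen 1, 2 and 3. The spleen mean lay under the floor of each spleen library, so the size of this fold change is uncertain. Eri1, an exonuclease that trims the stem loop, was at 61.3 ± 11.8 and 43.4 ± 4.32 CPM (0.48 ± 0.15, edgeR adjusted p = 0.0397). Slbp, the stem-loop binding protein, was at 91.2 ± 12.2 and 73.6 ± 3.45 CPM (0.30 ± 0.12, edgeR adjusted p = 0.108), and Snrpd3 had a log2 fold change of -0.33 ± 0.15 (edgeR adjusted p = 0.149).

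Histone chaperones, which carry new histones to DNA, were mixed. Liver was higher for 6 of the 24 tested and lower for 1, and 17 did not pass (median 0.16). Asf1b, which hands H3 and H4 to other chaperones, rose from 24.6 ± 4.36 to 52.9 ± 5.58 CPM (1.18 ± 0.16, edgeR adjusted p = 4.46e-05). Chaf1a, a subunit of the replication-coupled assembly factor, rose by 0.67 ± 0.16 (edgeR adjusted p = 0.00802), and Anp32e, which removes H2A.Z, by 0.56 ± 0.10 (edgeR adjusted p = 0.000675). Ipo4, an importer of H3 and H4, fell to 37.9 ± 1.96 CPM in liver from 68.6 ± 5.74 in spleen (-0.84 ± 0.13, edgeR adjusted p = 0.000172).

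Cell cycle genes outside the family were partly higher in liver in S phase and higher throughout the mitotic list. Of 35 S phase genes tested, 16 were higher, none lower and 19 did not pass (median log2 fold change 0.44), and their summed level was 2501 ± 154 CPM in liver and 1908 ± 205 in spleen, a ratio of 1.31. Lig1, the DNA ligase that joins replicated fragments, rose by 0.78 ± 0.10 (edgeR adjusted p = 4.17e-05), Rrm2, a ribonucleotide reductase subunit, by 0.93 ± 0.13 (edgeR adjusted p = 7.18e-05), and Dbf4 and Uhrf1 by 0.96 ± 0.18 and 0.60 ± 0.12. All 20 genes of G2 phase and mitosis tested were higher in liver (median 1.51), with a summed level of 2820 ± 152 CPM against 1046 ± 94.0, a ratio of 2.70. The largest of the 4 named by smallest p was Cenpf, a kinetochore protein, at 1.81 ± 0.12 (edgeR adjusted p = 2.35e-08); Tpx2, Kif11 and Mki67 were at 1.78, 1.59 and 1.37. The histone sum ratio of 2.02 lay between those of the S phase and the G2 and mitosis lists, and these differences between ratios were not tested.

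**Figure D4:**
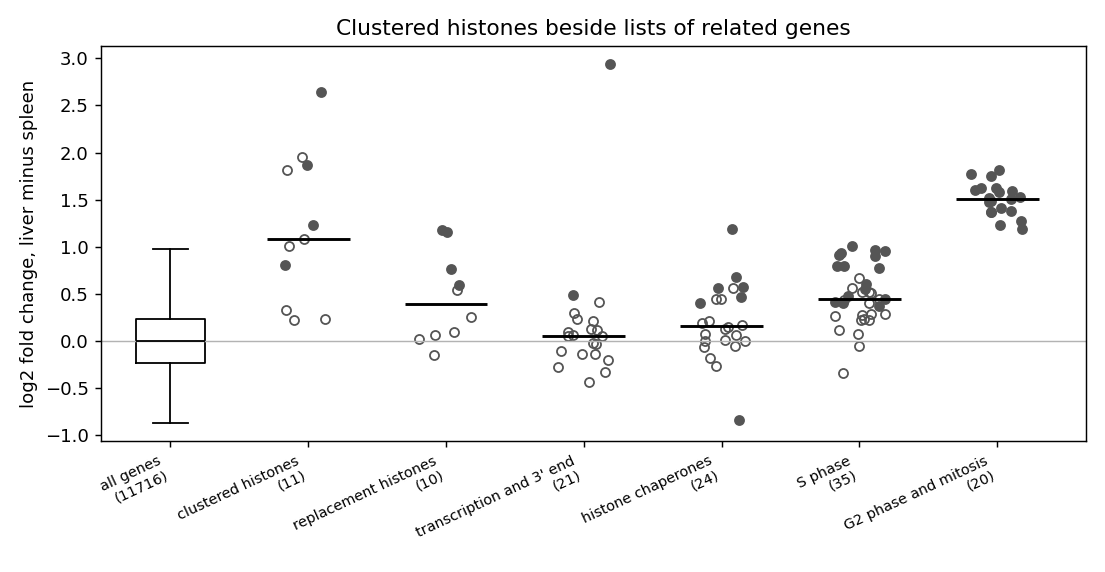
Log2 fold change of liver minus spleen (vertical axis) for all 11716 genes tested (box with quartiles, whiskers at the 5th and 95th percentiles), for the 11 clustered histone genes tested and for the genes of each list. Filled points passed the edgeR threshold. Lines are medians, at 1.08 for the clustered histones, 0.39 for replacement histones, 0.44 for S phase and 1.51 for G2 phase and mitosis. The 11 clustered histone genes passed a filter that can let a gene through on its liver reads alone. Their median depends on it, at 0.32 for the 5 genes left by a filter of 5 CPM in 3 libraries.

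Markers of other cells moved between the tissues beside these values. Erythroid markers were lower in liver for all 13 tested, with summed levels of 27.8 to 35.8 CPM in liver and 282 to 373.5 in spleen. Hba-a1, Hba-a2, Hbb-b1 and Hbb-b2 were at 0 in every library. Why these genes were at 0 was not tested, and the 0 is not read as a lack of expression. Macrophage markers were lower in 8 of 9 (73.9 to 84.2 against 134 to 213 CPM, Vsig4 at 0), granulocyte markers in 10 of 15, with 1 higher (319 to 349 against 517 to 873 CPM), and B cell markers in 4 of 10 (154 to 185 against 231.5 to 341 CPM). NK and CD8 T cell markers were higher in 5 of 10 and lower in 1 (116 to 138 against 52.4 to 70.1 CPM). Hepatocyte markers had 2 higher and 1 lower of 4, at 15.7 to 26.3 and 18.2 to 24.96 CPM in sum. The part of these cells in the histone levels was not tested.

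The count of 4 called genes moved with the processing. With DESeq2 size factors or a robust fit it stayed at 4, beside 9.06% and 9.49% of all genes. Upper-quartile scaling and the DESeq2 Wald test each gave 3, beside 8.14% and 8.71%. With no filter on low counts it was 9 of 58 (7.93% of all genes), with a filter of 5 CPM in 3 libraries 2 of 5 (10.2%), and after thinning every library to the depth of spleen 1 it was 0 of 3 (7.03%). Without spleen 1 it was 7 of 19 (10.3%), without spleen 2, 3 of 19 (6.05%), and without spleen 3, 5 of 19 (7.09%). Without liver 1 it was 4 of 15 (7.29%), without liver 2, 4 of 17 (6.97%), and without liver 3, 2 of 13 (7.84%). Without spleen 2, without spleen 3 and without liver 3, just 1 of the 4 genes was among those called in each case. Counting the alternatives in which a gene was still tested, Hist1h1c lost its call in 7 of 13, Hist1h4i in 4 of 12, Hist1h3c in 3 of 11 and Hist1h2bj in 1 of 11, with the direction kept in each.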

How the data were processed

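Gene counts were analysed for 6 RNA sequencing libraries, 3 from liver and 3 from spleen Treg cells, grouped by the tissue label. The authors deposited raw read counts per gene symbol; HISAT2 2.1, HTSeq 0.11 and build mm9 are named per the submitters' processing notes. The annotation, strand setting and RNA selection were not given in the sources used here. The 5 HTSeq summary rows, 25.6% to 29.0% of each column, were left out, and 0 columns belonged to other samples. Reads not aligned uniquely were 8.88% to 10.3%.

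Counts were fitted in R 4.3.3 with edgeR 4.0.16 (filterByExpr, TMM, quasi-likelihood F test, Benjamini-Hochberg over 11716 genes, threshold 0.05, common biological coefficient of variation 0.129). The SE is the size of the log2 fold change divided by the square root of F. Replicates differed beyond sampling noise, with a chi-square per degree of freedom of at least 4.56. The scripts were tested on simulated data. Alternatives were DESeq2 1.42.0, other scalings and filters, a robust fit, thinning and leaving out each library.

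The members and lists were chosen with earlier results of these data known. Values by library are given for the 12 genes with the highest mean CPM, every called gene, the top gene of each class and the Hist3 and Hist4 loci, and the 4 genes of smallest p are named per list. Others, such as Hist1h1d, Hist1h2ak and H3f3b, were named after their values were seen. Proteins were not used here. Sequences are from RefSeq (GRCm38.p6) and GENCODE vM21 (GRCm38), to which 67 and 68 of the 68 symbols matched.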

Additional observations from a re-analysis of the deposited data

How the results depend on the processing

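The number of clustered histone genes called higher in liver moved from 4 to 9 with no filter on low counts, to 2 when 5 CPM were required in 3 or more libraries and to 0 after thinning to the shallowest library; these changed the number of family genes tested to 58, 5 and 3. Leaving out each library in turn gave 2 to 7. None was called lower under any alternative run. The count over all genes, 1895, was 1062 after thinning and 1208 to 2234 with a library left out. The log2 ratio of the summed histone level, 1.01, lay between 0.97 and 1.06 under the scalings and thinning, and between 0.90 and 1.13 with a library left out. For the 11 genes tested, 112 of the fold changes under alternatives kept their direction and call, 15 lost the call, 2 gained it and 0 changed sign. No scaling moved the median of all genes by over 0.1. Depth limits the rest: 48 of the 58 genes with a count had none in spleen 1. No paired analysis was possible because the labels give the libraries no replicate numbers that liver and spleen share.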
